A study of Sparassis latifolia with 15 samples.

Results

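Primordia (P) of *Sparassis latifolia* strain SP-C were compared with dark mycelium (D) by RNA-seq, and the members of the comparison are the 3 P and 3 D libraries, 6 of the 15 samples of the series, taken by their labels. Group P was collected at day 42 and had been moved from darkness to daily cycles of light and dark, in which primordia formed. Group D was mycelium of the same strain kept in darkness and collected at day 28. Both groups came from cultivation bags of a single strain, and P was older than D and had seen light, so that age, light and development cannot be told apart between them. The study calls the libraries of a group biological replicates and does not say which bags they came from, so the p values measure the spread between these libraries. The other 9 samples are 3 RNA-seq libraries of mycelium after brief light (day 30) and 6 ATAC-seq libraries.

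The primordium is the compact knot of hyphae from which the fruiting body of a mushroom grows. In basidiomycetes its formation depends on a change from vegetative growth through the substrate to growth as an aerial tissue, and in many species light is needed for it. The white collar proteins, known best from *Neurospora crassa*, sense blue light, and hydrophobins are small secreted proteins that coat hyphae where they meet the air. In RNA from whole tissue, fewer cells of a type and less RNA per cell cannot be told apart.

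The P libraries held 20798190 to 23639217 counts in genes and the D libraries 23807204 to 27706995, and 10921 to 10998 genes were detected in each library. The P libraries differed among themselves more than the D libraries did. Between 2 P libraries the median absolute difference over the 10606 tested genes was 0.33 to 0.62 on the scale of log2(CPM + 1), where CPM are counts relative to the library size after TMM normalization, against 0.25 to 0.30 between 2 D libraries and 0.35 to 0.56 between a P and a D library. By this median primordia replicates 2 and 3 were the farthest apart of all 15 pairs, and 3012 genes differed between them by more than 2-fold. The biological coefficient of variation, the relative spread between libraries beyond counting error, was 0.435 among P and 0.286 among D. On the first principal component the P libraries stood at -42.7 to -41.7 and the D libraries at 34.0 to 52.4, whereas the second component, with 29.2% of the variance, separated primordia replicate 2 (-59.5) from primordia replicate 3 (44.0). In primordia replicate 2, 137 genes lay at least 4-fold below both other P libraries, against 15 and 19 in replicates 1 and 3. At least 4-fold above both others lay 73 genes in primordia replicate 3, against 31 and 41 in replicates 1 and 2.

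**Figure D1:**
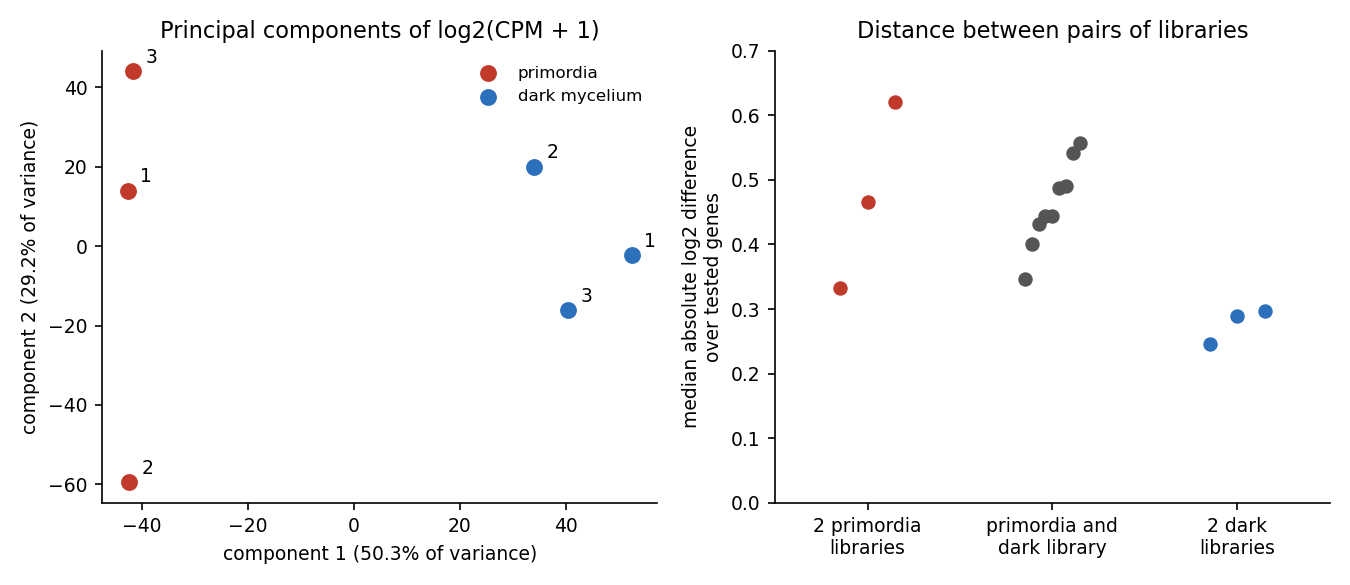
Left, position of the 3 primordia and 3 dark libraries on the first 2 principal components of log2(CPM + 1), with replicate numbers; right, median absolute log2 difference over 10606 genes for each pair of libraries, 1 point per pair. The groups separate along the first component, and the primordia libraries are spread along the second, from -59.5 to 44.0.

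Of 10606 tested genes, 141 were higher and 209 were lower in P than in D by edgeR's quasi-likelihood test. Calls required a fold change over 1.2 and a Benjamini-Hochberg adjusted p no higher than 0.05, the thresholds of the study. These are 1.33% and 1.97% of the tested genes, or 3.30% in both directions. DESeq2 called 543 higher (5.12%) and 644 lower (6.07%), and all 350 genes called by edgeR were among them with the same direction. The study, also with DESeq2 at these thresholds, reported more genes in each direction, and the reason for the difference was not tested. At an unadjusted p under 0.05, edgeR gave 1098 higher and 961 lower genes. The median log2 fold change of all tested genes was 0.07. The counts changed when a single library was left out, which also leaves the test fewer libraries, and these effects were not separated. Without dark replicate 1, 2 or 3, 73, 177 and 146 genes were called, without primordia replicate 1, 2 or 3 the numbers were 141, 727 and 389, and without primordia replicate 2 together with dark replicate 3 it was 320. Higher genes made up 40.3% of the calls, but 55.6% (404 of 727) without primordia replicate 2 and 27.4% (20 of 73) without dark replicate 1. The direction that held more calls thus changed with the library left out.

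**Figure D2:**
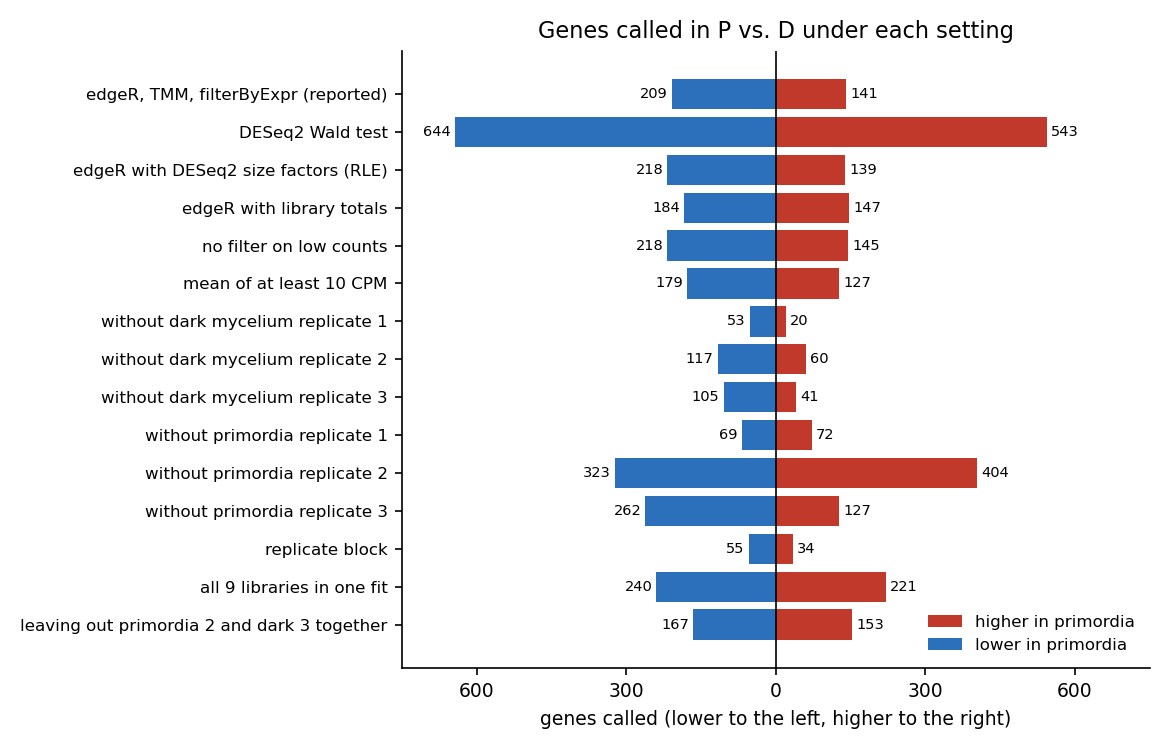
Number of genes called higher (right, red) and lower (left, blue) in primordia than in dark mycelium, for the reported test and 14 other settings. The count in both directions runs from 73 without dark replicate 1 to 1187 with DESeq2, and 350 were called in the reported test.

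Genes whose groups did not overlap were more numerous than the calls. In 1385 genes (13.1% of those tested) every P library was above every D library, and in 1324 (12.5%) every P library was below. All 350 called genes were among these. Of the separated genes with a difference of at least 4-fold, 234 were called and 178 were not. The uncalled genes had a larger spread, with a median SD in log2(CPM + 1) of 1.08 within P and 0.59 within D, against 0.55 and 0.43 for the called genes. The test weighs this spread, so the contrast follows from how the genes were called. DESeq2 called 171 of these 178. Over all tested genes the SD was larger within P than within D for 73.1%, with a median of 0.40 in P and 0.24 in D.

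The differences that edgeR called were large, and none was under 2-fold. By DESeq2, 485 of 543 higher and 539 of 644 lower calls were of at least 2-fold, so smaller differences were called there. By edgeR, 100 of the 141 higher and 134 of the 209 lower genes differed by at least 4-fold. A difference of at least 16-fold was called for 36 higher and 24 lower genes. At 64-fold or more, 10 higher and 3 lower genes were called. The median fold was 6.09 for higher and 5.52 for lower genes. Among all tested genes with at least 4-fold difference, 45.2% of the higher (100 of 221) and 54.7% of the lower ones (134 of 245) passed the test, whereas between 2-fold and 4-fold edgeR called 41 of 772 higher and 75 of 468 lower genes.

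Many genes called higher were weak in D, and a low level there follows in part from the call itself. Their median level was 74.2 CPM in P and 8.95 CPM in D, and 73 of the 141 were under 10 CPM in D, whereas 15 were under 10 CPM in P. Genes called lower had a median of 16.03 CPM in P and 98.2 CPM in D, and 69 of the 209 were under 10 CPM in P, against 5 in D. Their low level in P likewise follows in part from the call. Of all 10606 tested genes, 425 had a mean over the 6 libraries below 1 CPM and 2312 from 1 to 10 CPM. Complete switches were few. A single gene was below 1 CPM in every D library and at least 10 CPM in every P library, a single gene showed the opposite pattern, and no tested gene had 0 counts throughout a group. The share of genes called was 0.471% below 1 CPM (mean over the 6 libraries), 1.21% from 1 to 10 CPM, 3.76% from 10 to 100 CPM, 4.79% from 100 to 1000 CPM and 5.22% (6 of 115 genes) above that by edgeR. DESeq2 called 5.88%, 10.9%, 10.7%, 12.9% and 28.7% in the same order of levels.

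The called genes accounted for a visible part of all reads. Together the 141 higher genes held 3.56%, 4.04% and 4.61% of the counts in the P libraries, against 0.294%, 0.339% and 0.306% in the D libraries. The 209 lower genes held 0.802%, 0.642% and 0.740% in P and 5.93%, 3.78% and 5.49% in D. These shares follow from how the genes were called and describe their weight only. They do not rest on a single gene, since the higher genes without Gglean008381 still held 2.92% to 3.41% in P, and the lower genes without D11 held 3.27% to 4.50% in D. Of the 10 genes with the most reads in P, 2 were also among the 10 with the most reads in D, and 56 of the first 100 were shared. Of the first 100 in P, 7 were called higher, and of the first 100 in D, 6 were called lower, so that most of this turnover lay in genes that did not pass the test.

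**Figure D3:**
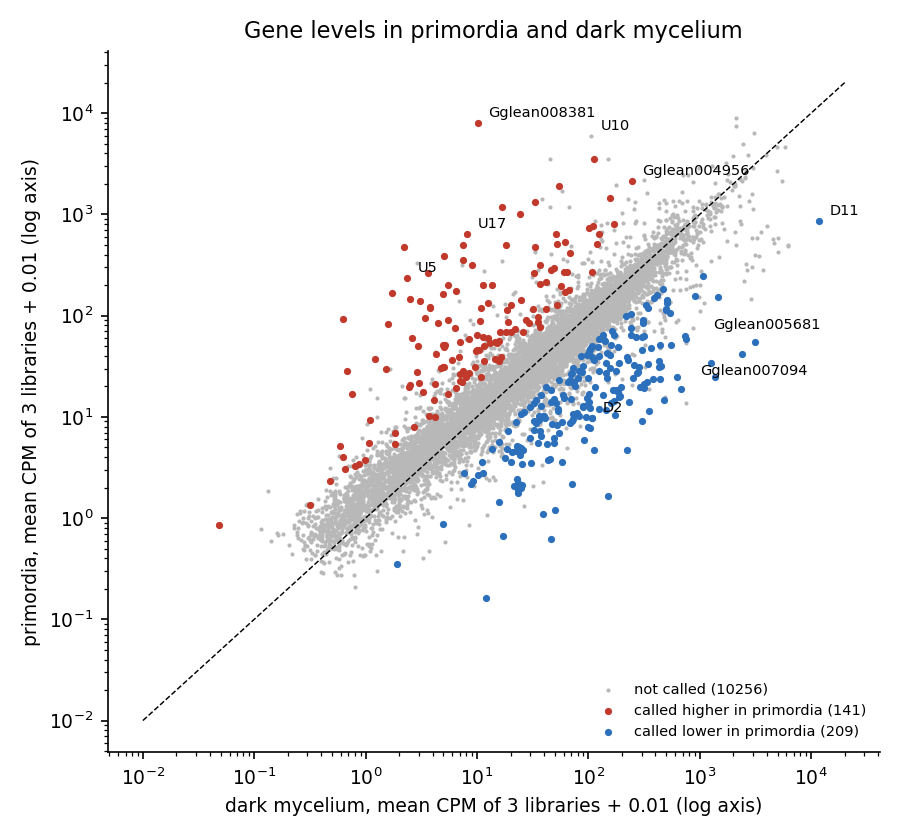
Mean CPM of each of 10606 genes in primordia (vertical) and dark mycelium (horizontal), both on log axes after adding 0.01, with called genes in colour and the line of equal level dashed. The 141 genes called higher have a median of 8.95 CPM in dark mycelium, and Gglean008381 stands farthest above the line.

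Beyond the genes that the study describes, 130 higher and 203 lower genes were called. The count tables pair no description with the gene IDs, and no ID (0) matched the reference table of another strain of the species. Only 2 IDs per direction are therefore named, those with the largest difference in mean CPM among the called genes without overlap. Gglean008381 had 6181, 6340 and 11355 CPM in the P libraries, against 6.75, 7.58 and 16.1 CPM in the D libraries. By reads it ranked 3, 5 and 2 in the P libraries and 8053, 8147 and 6774 in the D libraries. The log2 fold change was 9.61 ± 0.81 (SE, edgeR adjusted p = 0.0042), and the call was kept in all 14 other settings.

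Gglean004956 had 1402, 1117 and 3830 CPM in P, against 336, 208 and 194 CPM in D. The log2 fold change was 3.11 ± 0.60 (SE, edgeR adjusted p = 0.0380), and it was 2.34 without primordia replicate 3, the highest P library. The call ended without dark replicate 1, 2 or 3 or primordia replicate 1 (adjusted p 0.0778 to 0.158, in a range of 2.35e-07 to 0.158 over all its settings). In mycelium after brief light, scaled together with the other libraries, Gglean008381 had 47.5, 472 and 599 CPM and Gglean004956 had 1012, 540 and 816 CPM.

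Gglean005681 had 32.3, 34.6 and 98.3 CPM in P, against 1467, 1229 and 6696 CPM in D. Dark replicate 3 stood well above the other D libraries, and in it this gene ranked 3 by reads. The log2 fold change was -5.83 ± 0.97 (SE, edgeR adjusted p = 0.0239), and the call ended without dark replicate 1 or primordia replicate 1 (adjusted p 0.0657 and 0.0968, in a range of 6.46e-14 to 0.0968). Its log2 fold change was -4.62 without dark replicate 3 and -6.57 without primordia replicate 3. Gglean007094 had 98.5, 16.3 and 10.3 CPM in P, against 3762, 797 and 2592 CPM in D. Here primordia replicate 1 and dark replicate 2 stood apart within their groups. Its log2 fold change was -5.84 ± 1.14 (SE, edgeR adjusted p = 0.0386), and the call ended without dark replicate 1, 2 or 3 or primordia replicate 3 (adjusted p 0.0557 to 0.129, in a range of 2.58e-10 to 0.129). Without primordia replicate 1 the log2 fold change of Gglean007094 was -7.52. After brief light, Gglean005681 had 335, 4367 and 1831 CPM and Gglean007094 had 394, 59.2 and 219 CPM.

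**Figure D4:**
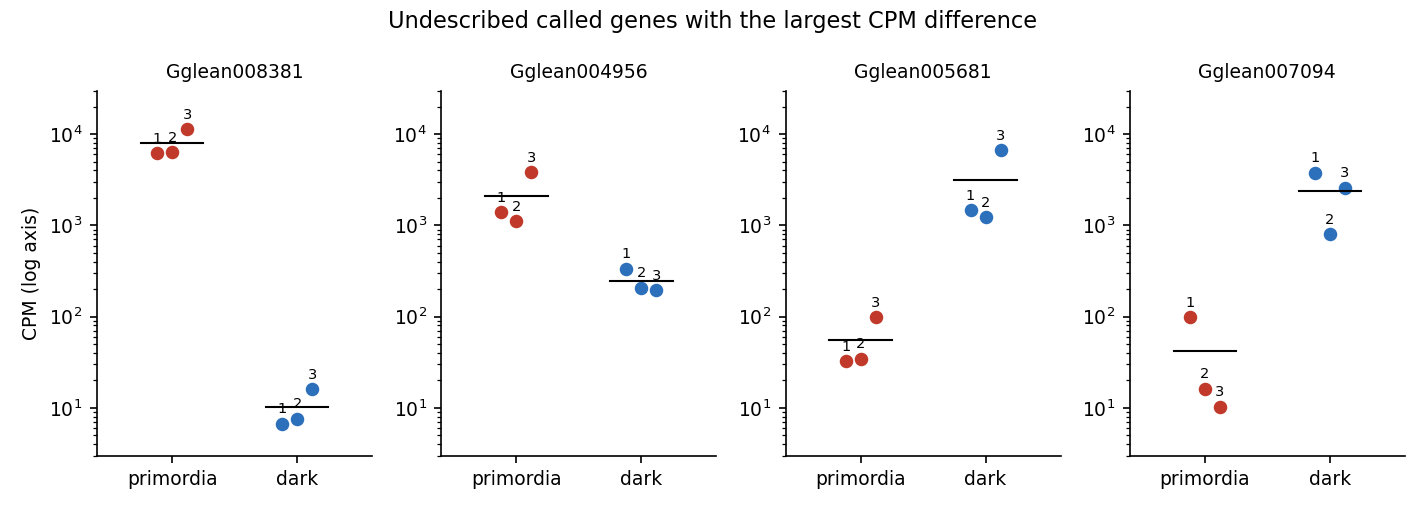
CPM in each primordia and dark library, on a log axis, for the undescribed genes with the largest difference in mean CPM among those called without overlap, 2 per direction; numbers are replicates and lines are group means. Gglean008381 lies between 6181 and 11355 CPM in primordia and between 6.75 and 16.1 CPM in dark mycelium.

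The study lists 30 genes with a description, 17 that it reports as raised (U1 to U17) and 13 as lowered (D1 to D13). They were chosen for changes of the same direction in ATAC-seq and RNA-seq, both in P and in mycelium after brief light, each against D. Some are described only as hypothetical or uncharacterized. GAPDH is the study's reference gene. By edgeR, 11 of the 17 U genes were higher and 6 of the 13 D genes were lower in P, and none of the 30 (0) was called in the other direction. Over all tested genes 1.33% were higher and 1.97% were lower. The median log2 fold change was 4.24 for the U genes (4.21 without U4) and -3.09 for the D genes, against 0.07 over all genes. The study chose these genes on the same libraries, so that their counts and directions are not independent evidence. They serve here to give the changes a function where their description names one. In the study's quantitative PCR, patterns were similar to those of the sequencing except for U1, U9, U14, U16, D5, D8, D9 and D13.

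Of the 3 genes of the cell surface, light perception and regulation, 2 were called higher in P and 1 did not pass. U10 encodes fruiting body protein SC4, a hydrophobin that in *Schizophyllum commune* lines the air channels of the fruiting body. It had 1625, 14685 and 1601 CPM in P, against 61.0, 33.9 and 219 CPM in D. All P libraries lay above all D libraries, and in primordia replicate 2 U10 drew more reads than any other gene. The log2 fold change of 5.83 (SE 1.31) did not pass edgeR (adjusted p = 0.0615), and DESeq2 gave no adjusted p. U10 was called when primordia replicate 2 was left out, with a log2 fold change of 3.94 (edgeR adjusted p = 0.0334; all settings 0.014 to 0.261).

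U15, the white collar 1 protein, the blue light receptor of the white collar pair, had 1025, 228 and 942 CPM in P, against 122, 87.3 and 92.0 CPM in D. It was higher in P (log2 fold change 2.86 ± 0.58 SE, edgeR adjusted p = 0.0433), and primordia replicate 2 stood nearest to D. The call was lost when any library except primordia replicate 2 was left out (adjusted p 0.0772 to 0.183, in a range of 7.66e-06 to 0.183). U11, gluconate transport inducer 1, is named after a *Schizosaccharomyces pombe* protein that induces gluconate uptake. It had 198, 316 and 83.5 CPM in P, against 3.42, 7.37 and 5.52 CPM in D, and was higher in every setting (log2 fold change 5.19 ± 0.58 SE, edgeR adjusted p = 0.0079).

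Of the 6 described oxidoreductases, 1 was higher, 1 was lower and 4 did not pass. U17, dehydrogenase citC, is named after an enzyme of citrinin synthesis in *Monascus*. It had 960, 458 and 482 CPM in P, against 4.51, 11.001 and 9.05 CPM in D, a log2 fold change of 6.27 ± 0.56 (SE, edgeR adjusted p = 0.0042). D10, lactate 2-monooxygenase, which oxidises lactate, had 6.10, 9.25 and 14.8 CPM in P, against 111, 97.7 and 76.5 CPM in D, a log2 fold change of -3.24 ± 0.37 (SE, edgeR adjusted p = 0.0083). Both calls were kept in all 14 other settings.

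The remaining 4 oxidoreductases did not pass edgeR. D4, phenol 2-monooxygenase, which hydroxylates phenol, had 1120, 542 and 109 CPM in P, against 8082, 2102 and 4936 CPM in D, and D9, an aldo-keto reductase, had 1220, 103 and 663 CPM in P, against 5562, 3020 and 1982 CPM in D. In both genes all P libraries lay below all D libraries, at log2 fold changes of -3.09 and -2.41 (edgeR adjusted p = 0.122 and 0.190). D12, O-methylsterigmatocystin oxidoreductase, named after a cytochrome P450 of aflatoxin synthesis in *Aspergillus*, had 10.5, 7.09 and 15.4 CPM in P, against 17.6, 27.4 and 32.3 CPM in D (edgeR adjusted p = 0.121). DESeq2 called D4, D9 and D12 lower. U1, dehydrogenase patE, was the only U gene whose groups overlapped, with 79.3, 137 and 171 CPM in P, against 45.0, 84.2 and 30.5 CPM in D (edgeR adjusted p = 0.166).

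In amino acid and sulfur metabolism, D11 was lower, and D3 and D13 did not pass edgeR. D11 encodes the methyltransferase that forms methionine from homocysteine. It had 1477, 672 and 441 CPM in P, against 16134, 5020 and 13970 CPM in D, where it held 1.43%, 0.509% and 1.39% of all counts and drew the most reads of any gene in dark replicates 1 and 3. The log2 fold change was -3.76 ± 0.78 (SE, edgeR adjusted p = 0.0471), close to the threshold, and the call was lost without any 1 of the 6 libraries (adjusted p 0.0601 to 0.175, in a range of 8.17e-09 to 0.175). With primordia replicate 1 left out, D11 had a log2 fold change of -4.42. D3, a putative glycine dehydrogenase, part of the glycine cleavage system, had 184, 220 and 53.9 CPM in P, against 1235, 366 and 1369 CPM in D (log2 fold change -2.70, edgeR adjusted p = 0.0876), and DESeq2 called it lower. For D11 and D3 alike, dark replicate 2 was the lowest D library. D13, a trans-sulfuration enzyme of the class that moves sulfur between cysteine and homocysteine, had 15.4, 16.998 and 10.2 CPM in P, against 25.8, 17.1 and 21.0 CPM in D (edgeR adjusted p = 0.325).

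All 3 genes grouped with lipids were called. D2, a delta(12) fatty acid desaturase, which makes linoleic from oleic acid, had the smallest SE of the D genes, with 11.8, 9.20 and 8.37 CPM in P, against 115, 104 and 107 CPM in D. Its log2 fold change of -3.47 ± 0.23 (SE, edgeR adjusted p = 0.0039) was called in all 14 other settings. D7, an alpha/beta hydrolase, belongs to a large fold family that includes esterases and lipases. It had 1.53, 2.90 and 2.89 CPM in P, against 29.9, 25.2 and 13.9 CPM in D, and was lower (log2 fold change -3.23 ± 0.41 SE, edgeR adjusted p = 0.0101). Of all settings, only the replicate block ended the call of D7 (edgeR adjusted p = 0.067). U8, a phospholipid methyltransferase, an enzyme class of phosphatidylcholine synthesis, had 24.8, 210 and 46.2 CPM in P, against 1.43, 3.03 and 5.72 CPM in D. It was higher (log2 fold change 4.78 ± 0.94 SE, edgeR adjusted p = 0.0398), and the call was lost without any 1 of the D libraries (adjusted p 0.0902 to 0.167, in a range of 6.14e-08 to 0.167). U8 had a log2 fold change of 3.38 without primordia replicate 2, its highest P library, and 5.38 without dark replicate 3.

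Both D transporters were lower in P. D1, a general substrate transporter of the major facilitator superfamily, which moves small solutes across membranes, had 4.16, 42.5 and 16.01 CPM in P, against 383, 243 and 328 CPM in D. Its P libraries differed by 10.2-fold, and the log2 fold change was -3.93 ± 0.78 (SE, edgeR adjusted p = 0.0414). The call of D1 was lost without any 1 of the D libraries or primordia replicate 3 (adjusted p 0.0809 to 0.133, in a range of 5.0e-07 to 0.133), and its log2 fold change was -4.98 without primordia replicate 2. D6, an uncharacterized transporter, had 9.11, 11.8 and 14.2 CPM in P, against 248, 99.3 and 84.2 CPM in D (log2 fold change -3.62 ± 0.48 SE, edgeR adjusted p = 0.0104). Its call was lost without primordia replicate 1, with the replicate block and in the fit of all 9 libraries (edgeR adjusted p = 0.0548, 0.064 and 0.0745). Over all its settings, DESeq2 included, the adjusted p was 6.36e-12 to 0.0745. Without dark replicate 1, D6 had a log2 fold change of -2.98. U3, named after ATM1, the mitochondrial transporter of *Saccharomyces cerevisiae* that serves iron-sulfur protein assembly outside the organelle, had 399, 290 and 586 CPM in P, against 12.4, 81.1 and 5.84 CPM in D. Dark replicate 2 stood high, and U3 was called only without it by edgeR (adjusted p = 0.0182, against 0.0935 with it, in a range of 0.0002 to 0.312) and by DESeq2.

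The glycolytic genes did not pass either test. D5, a phosphoglycerate mutase, had 276, 88.3 and 256 CPM in P, against 619, 331 and 411 CPM in D (log2 fold change -1.14, edgeR adjusted p = 0.251). GAPDH, the reference gene of the study's quantitative PCR, had 4216, 638 and 2153 CPM in P, against 3249, 2414 and 1966 CPM in D, a log2 fold change of -0.12 ± 0.68 (SE, edgeR adjusted p = 0.950) whose sign changed with the setting. GAPDH varied 6.61-fold within P and 1.65-fold within D. D5 and GAPDH were both lowest in primordia replicate 2.

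The 2 genes of chromosomes and RNA did not pass edgeR, while DESeq2 called U6 higher and D8 lower. D8, meiosis-specific protein hop1, in *S. cerevisiae* a part of the chromosome axis in meiosis, had 2.73, 2.36 and 4.80 CPM in P, against 10.5, 6.69 and 9.05 CPM in D (log2 fold change -1.40, edgeR adjusted p = 0.0921), and edgeR called it when primordia replicate 3 was left out (adjusted p = 0.0456, all settings 0.00606 to 0.331). U6, the pre-mRNA-splicing factor CWC22, had 4.39, 4.44 and 7.76 CPM in P, against 2.04, 2.67 and 3.02 CPM in D (log2 fold change 1.10, edgeR adjusted p = 0.148).

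Among the 4 genes named for protein domains or enzyme classes, 2 were higher, U14 and U16, which like U9 were exceptions in the study's quantitative PCR. U14, a putative methyltransferase-like protein, had 1360, 5918 and 3308 CPM in P, against 98.9, 88.8 and 152 CPM in D (log2 fold change 4.96 ± 0.69 SE, edgeR adjusted p = 0.0129). U16, cysteine proteinase 1, had 19.8, 14.8 and 55.3 CPM in P, against 0.903, 1.71 and 1.96 CPM in D (log2 fold change 4.29 ± 0.61 SE, edgeR adjusted p = 0.0134). The call of U14 was lost without any 1 of the D libraries and that of U16 without dark replicate 1 or 2 (adjusted p at most 0.0951 and 0.0790, the highest of all their settings). U14 had a log2 fold change of 4.36 without primordia replicate 2, and U16 of 3.47 without primordia replicate 3. U12, with a RING finger and the N-terminal domain of LON peptidase, had 2587, 108 and 868 CPM in P, against 62.2, 66.3 and 73.3 CPM in D (edgeR adjusted p = 0.0774). Leaving out primordia replicate 2, its lowest P library, gave a call (edgeR adjusted p = 0.0068; all settings 1.7e-05 to 0.296), as did DESeq2. U9, an SH3 domain protein, stood apart in a single library, with 1800, 316 and 361 CPM in P, against 232, 300 and 254 CPM in D (edgeR adjusted p = 0.244).

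All 5 hypothetical proteins were higher. U5 had 163, 422 and 116 CPM in P, against 2.47, 2.28 and 2.31 CPM in D, a log2 fold change of 6.63 ± 0.59 (SE, edgeR adjusted p = 0.0042). U13 had 140, 147 and 69.4 CPM in P, against 11.5, 11.1 and 10.1 CPM in D (log2 fold change 3.45 ± 0.34 SE, edgeR adjusted p = 0.0050). The D libraries of both genes lay close together, and both calls were kept in all 14 other settings, with a log2 fold change of 5.89 for U5 without primordia replicate 2. U2 had 381, 70.7 and 494 CPM in P, against 14.5, 3.38 and 8.93 CPM in D (edgeR adjusted p = 0.0253), and U7 had 164, 206 and 148 CPM in P, against 54.1, 52.3 and 79.4 CPM in D (edgeR adjusted p = 0.0296). Both lost their call without any 1 of the D libraries or primordia replicate 1 (adjusted p 0.0668 to 0.100 for U2 and 0.0616 to 0.172 for U7, in each case up to the highest of all its settings). U4 had few reads, with 15, 16 and 29 counts in P, against 0, 1 and 2 counts in D. The ratio of its scaled counts was 21.2 (exact 95% interval 6.92 to 106, counting error only), and its call (edgeR adjusted p = 0.0275) was lost without any 1 library except primordia replicate 2 (adjusted p 0.0560 to 0.102). U4 had a log2 fold change of 4.24, and 5.07 without dark replicate 3.

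**Figure D5:**
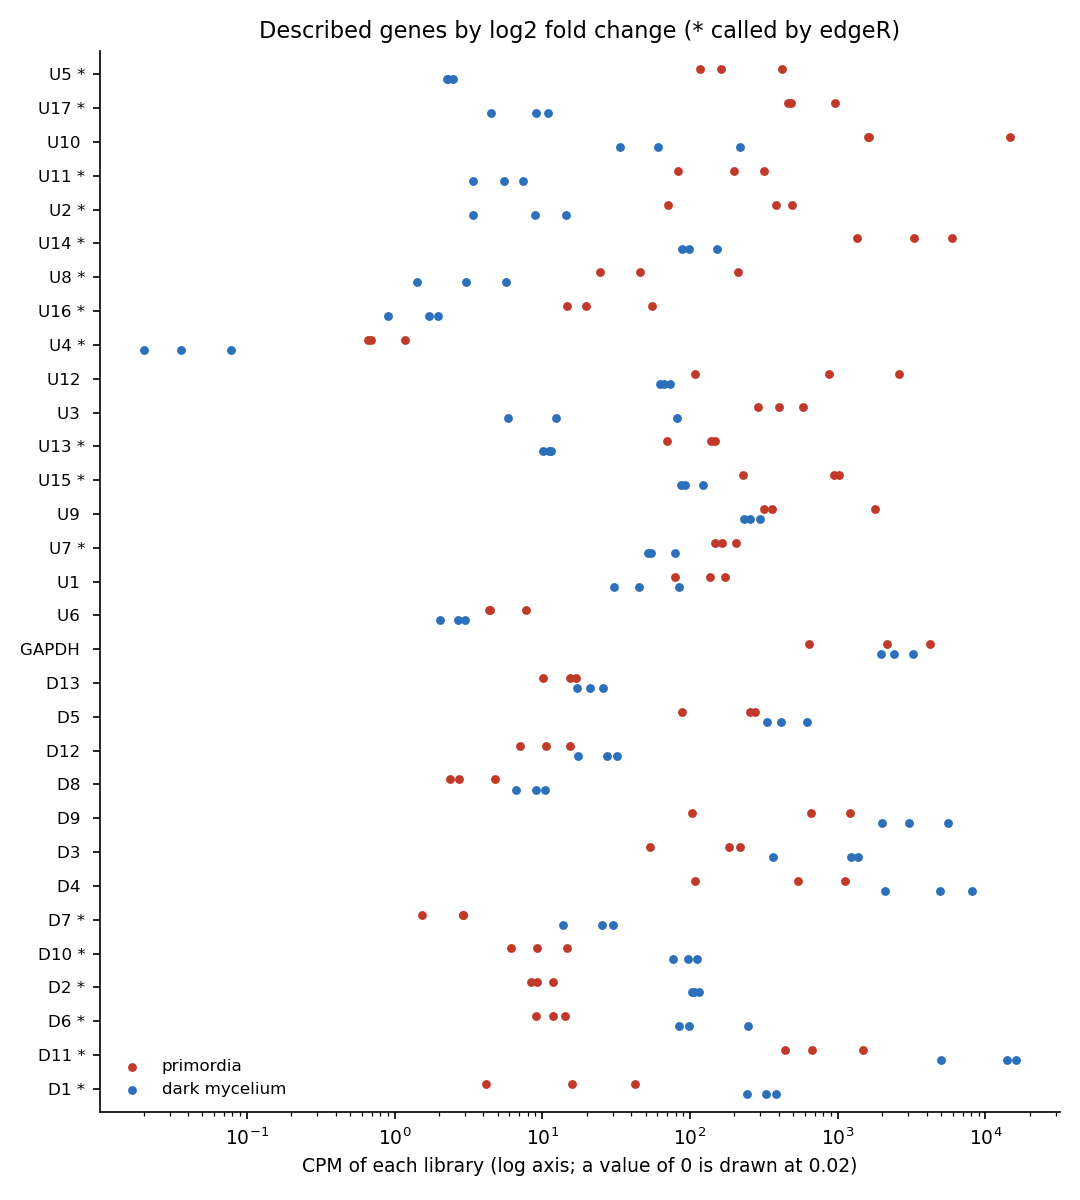
CPM of each described gene and GAPDH in the 3 primordia libraries (red) and 3 dark libraries (blue), on a log axis, ordered by log2 fold change; a value of 0 is drawn at 0.02 and stars mark genes called by edgeR. Groups do not overlap for 16 of 17 U genes and all 13 D genes, which the study chose on these libraries, against 13.1% (higher) and 12.5% (lower) of all tested genes, and the primordia values of U10, U12 and D1 are widely spread.

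Of the 350 called genes, 53 (20 higher and 33 lower) kept their call in all 13 settings fixed for this comparison, which include DESeq2, other scalings and filters, each library left out and the replicate number as a block. Their differences were at least 2.18 (higher) and 2.39 (lower) on the log2 scale, with medians of 4.50 and -3.53. U5, U11, U13 and U17 were among the 20, as were D2 and D10 among the 33. No call (0) was reversed in any setting.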

How the data were processed

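RNA-seq counts were used from 3 libraries each of P, D and, for a joint fit, light mycelium. The authors used cutadapt for trimming, STAR for alignment to the genome of SP-C and HTSeq 0.6.1 for counting, and the deposited counts are whole numbers without normalization. The sources used here do not state the strand setting, so reads of a gene and of one that overlaps it, antisense included, could not be separated. Columns with the authors' scaled counts, fold changes and p-values were not used, nor were the ATAC-seq peak lists.

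Of 11161 genes, 10606 passed edgeR's filterByExpr. TMM scaling and the quasi-likelihood test of edgeR 4.0.16 (R 4.3.3) were applied to the P and D libraries alone. SE values were derived from the test itself, as the unshrunk log2 fold change (absolute) over the root of F, so they add nothing to the p-value. CPM are not divided by gene length, so ranks are ranks of reads. Alternatives were DESeq2 1.42.0, edgeR with DESeq2 size factors or with library totals, the test without a filter or with a mean of at least 10 CPM, each library left out, replicate number as a block, and all 9 libraries in a single fit on the 11118 genes in both tables. Leaving out primordia replicate 2 with dark replicate 3 was added after the data were seen. The procedure was tested on simulated data. Figures were drawn with matplotlib 3.10.9. Named genes are the 30 described genes, GAPDH, and among called genes without overlap 2 IDs per direction by the difference in mean CPM. The members, lists and rules were chosen with earlier results of these data known.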

Additional observations from a re-analysis of the deposited data

How the results depend on the processing

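DESeq2 called 543 higher and 644 lower genes, 1187 in all, of which 439 differed by at least 4-fold, and 11 of the 13 D genes. It gave no adjusted p for 18 genes, U10 included. A fit of all 9 libraries called 221 higher genes. In that fit D6, U7 and U8 lost their call (edgeR adjusted p = 0.0745, 0.103 and 0.0597). With each library left out in turn, higher genes ranged from 20 to 404, lower genes from 53 to 323, all calls from 73 to 727, calls of at least 4-fold from 73 to 349 and U genes from 4 to 13, lowest without dark replicate 1 and highest without primordia replicate 2. Other scalings and filters kept the count of calls between 306 and 363. The log2 fold change of GAPDH was 0.0063 with library totals, 0.17 without primordia replicate 2 and dark replicate 3 together, and between -0.87 and 0.32 with single libraries left out. These causes were not tested.

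Same-numbered P and D libraries did not deviate together (correlations over genes of 0.01, -0.40 and -0.34 for replicates 1, 2 and 3), and the numbers were not read as pairs. Deviations were taken from the group mean and cancel within a group. Such correlations are therefore tied to each other and cannot decide on pairing. Deviations of primordia replicate 2 and dark replicate 3 correlated at 0.41, and those of primordia replicate 3 and dark replicate 2 at 0.35. What the libraries of such a pair share was not tested. With the replicate block, 34 higher and 55 lower genes were called, 89 in all, each of at least 4-fold (89), with 6 U and 2 D genes. Among the named genes, the block ended the calls of D1, D6, D7, D11, U4, U7, U8, U14, U15, Gglean004956 and Gglean007094. Between 2-fold and 4-fold, edgeR called 41 of 772 higher and 75 of 468 lower genes, and DESeq2 called 281 and 304. Depth limited U4 to its counting interval.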

Other observations

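Some called genes had IDs next to each other in number. Of the 141 genes called higher in P, 32 (22.7%) had a called higher gene with the next or previous number, in 13 runs of 2 and 2 runs of 3, and of the 209 called lower, 34 (16.3%) did, in 17 runs of 2. Of all tested genes, 2.39% had a called higher and 3.65% a called lower gene at such a number. Whether consecutive numbers are neighbours in the SP-C genome is not stated by the sources used here, and the part of overlapping genes in these runs was not tested.

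The D libraries also differed by which of them was extreme among the called genes. Of the 209 genes called lower, dark replicate 1 was the highest D library for 125 and dark replicate 2 the lowest for 103, and of the 141 called higher, dark replicate 2 was the highest D library for 78. Over all 10606 tested genes dark replicate 1 was the highest D library for 3249, and dark replicate 2 was the highest for 4043 and the lowest for 3722.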
